A study of Bos taurus with 6 samples.

Results

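The endoplasmic reticulum (ER) genes described here are 45 genes whose products carry new secretory proteins into the ER, fold and modify them there, or respond when folding fails. They were taken by name, and a gene counted as measured where at least 1 probe set of the array had that gene as its only annotated symbol. By this rule 41 of the 45 genes were measured, among 9155 genes in all, and PDIA6, XBP1, ATF6 and RPN1 had no such probe set. The cells were articular chondrocytes from the metacarpal-phalangeal joints of cows (Bos taurus), the cells that make and maintain the matrix of joint cartilage, plated as high-density micromass cultures. After overnight culture they were left untreated (the treatment protocol names a vehicle) or given 5 ng/ml TGF-β1 for 8 h, and RNA of 3 cultures per group was hybridised to Affymetrix GeneChip Bovine Genome Arrays. The arrays are numbered 1 to 3 within each group. The study grew cultures of 3 cows with and without TGF-β1, but the labels do not state that a number stands for a cow.

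Chondrocytes secrete large amounts of collagen and proteoglycan, and all of it passes through the ER. A new chain enters through the SEC61 channel, receives N-linked sugars from the oligosaccharyltransferase, and is held by general chaperones such as BiP (HSPA5), GRP94 (HSP90B1) and calreticulin (CALR) while disulfide bonds form. Procollagen needs a further set of helpers that act on its proline residues and its triple helix, among them HSP47 (SERPINH1), the prolyl 3-hydroxylation complex (CRTAP, P3H1 and PPIB) and the prolyl isomerases FKBP10 and FKBP14. When unfolded protein builds up, sensors in the ER membrane, ATF6 itself among them, act through the transcription factors XBP1, ATF6 and ATF4. These factors raise the chaperones and, under lasting stress, DDIT3 (CHOP). TGF-β is known as an inducer of matrix synthesis, and the comparison shows how far the folding machinery moved within 8 h of it.

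Values are log2 signals, and the deposited table holds each probe set as its difference from its own median over the 6 arrays. A value of 0 is therefore the middle of the 6 arrays, differences between arrays are kept, and the level of one gene cannot be set against that of another. The array number, not the treatment, carried the largest difference in the data. In a principal component analysis both arrays of replicate 3 lay far from the rest on the leading axis (56.4% of variance), and the median of 20 cell cycle genes was 2.37 and 2.17 on these arrays and between -0.26 and -0.08 on the other 4. On the TGF-β1 array of replicate 2, the median of the spike-in controls was 1.53 against -0.17 to 0.06 on the other arrays. Each gene was tested with limma, with the replicate number as a term so that each TGF-β1 array was set against the untreated array of its number (the paired fit). The words rose and fell are used for an adjusted p under 0.05 over all 9155 genes in this fit. Because the arrays hold bulk RNA, fewer cells of a type and less RNA per cell cannot be told apart. As levels were lost, the labelled cell type could not be checked by the presence of its markers.

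None of the 41 measured ER genes rose with TGF-β1 and 2 fell, CRTAP and FKBP9. Over all genes, 205 of 9155 rose (2.24%) and 419 fell (4.58%), and the 2 ER genes that fell are 4.88% of those measured, close to that background. At an unadjusted p under 0.05, limma put 3 ER genes higher (7.32%) and 5 lower (12.2%), both below the shares of all genes, 8.41% and 14.1%. The log2 differences, TGF-β1 minus untreated, ran from -0.61 (FKBP9) to 0.37 (FKBP14), with 22 estimates above 0, 19 below 0 and a median of 0.0092, against a median of -0.0096 over all genes. All 3 pairs were higher for 10 of the 41 ER genes and lower for 11, against 1816 and 2234 of all 9155 genes. The median size of the difference, without its sign, was 0.13 for the ER genes and 0.12 for all genes. In the paired fit the intervals around most of these differences were narrow. They rest largely on variance shared across genes (2 residual and 4.98 prior degrees of freedom). As levels were lost, an unchanged gene cannot be told apart from one whose probe set gave little signal. The 95% confidence interval, not adjusted for the number of genes, lay within a 2-fold change in either direction for 41 of 41 ER genes, as for 8869 of all 9155 genes. It lay within a 1.5-fold change for 36 of the 41 ER genes, as for 7690 of all 9155 genes. The 5 ER genes that could have changed by more were CRTAP, FKBP14, FKBP9, CALR and DNAJB9.

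**Figure D1:**
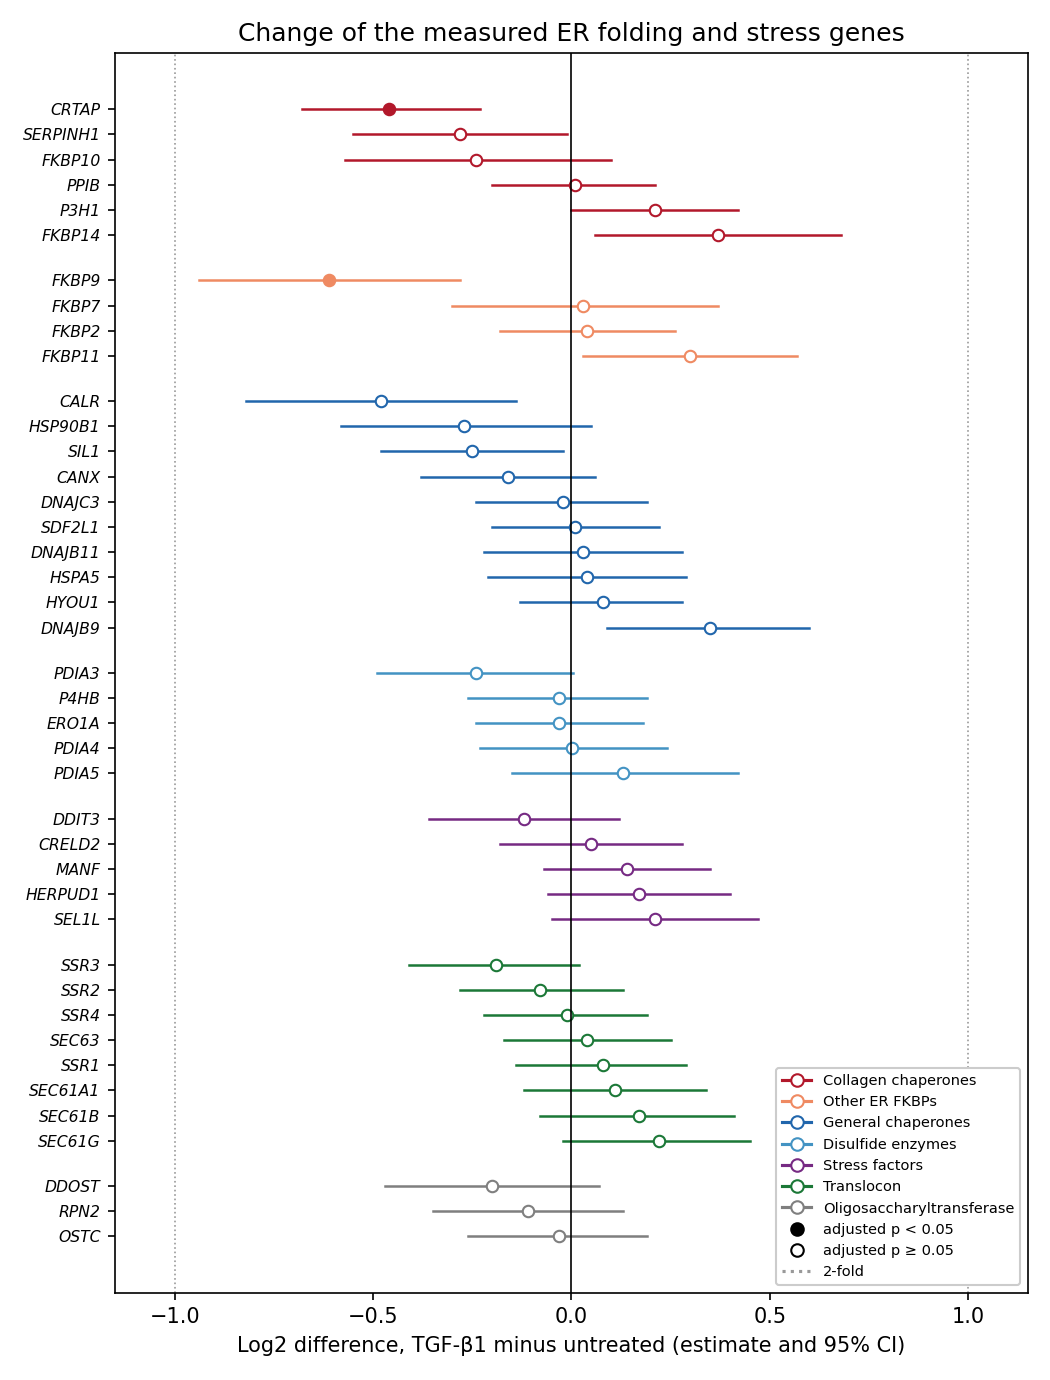
Log2 difference, TGF-β1 minus untreated, of each of the 41 measured ER genes (points), with its 95% confidence interval from the paired fit (lines), grouped by role; filled points are the genes with an adjusted p under 0.05. CRTAP (-0.46) and FKBP9 (-0.61) are the only filled points, and every interval lies between the dotted lines that mark a 2-fold change.

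The collagen chaperones did not move as a group. Among the 6, CRTAP fell, the other 5 did not pass the test, and 3 estimates were above 0 and 3 below. CRTAP, the cartilage-associated protein that forms the prolyl 3-hydroxylation complex with P3H1 and PPIB, was at 0.16, 0.46 and 0.09 on the untreated arrays of replicates 1, 2 and 3 and at -0.32, -0.09 and -0.24 on the TGF-β1 arrays. Every TGF-β1 array lay below every untreated array. The log2 difference was -0.46 (SE 0.0932, adjusted p = 0.035), a 1.37-fold decrease, and the 3 pairs gave -0.48, -0.55 and -0.33. Its partners in the complex gave other values, 0.21 for P3H1 (SE 0.0886, adjusted p = 0.227) and 0.0092 for PPIB (SE 0.0865, adjusted p = 0.965).

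SERPINH1 encodes HSP47, which binds the folded procollagen helix and travels with it to the Golgi. Its values were 0.0074, -0.0074 and 0.07 on the untreated arrays and -0.42, -0.41 and 0.07 on the TGF-β1 arrays. It was lower with TGF-β1 by nearly the same amount in replicates 1 and 2, whereas the replicate 3 arrays differed by only -0.0055, so the groups overlapped. The mean log2 difference was -0.28 (SE 0.113, adjusted p = 0.206), and leaving out replicate 3 gave -0.41 (adjusted p = 0.115). Of the collagen-folding prolyl isomerases, FKBP10, which acts with HSP47, had a difference of -0.24 (adjusted p = 0.392), and FKBP14 had 0.37 (95% interval 0.06 to 0.68, adjusted p = 0.15) with a higher value on the TGF-β1 array in each of the 3 pairs.

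FKBP9 encodes another FK506-binding protein of the ER with prolyl isomerase domains. On the untreated arrays its values were 0.12, 0.57 and 0.13, and on the TGF-β1 arrays -0.50, -0.39 and -0.12. The groups did not overlap, and the smallest of the 3 paired differences was in replicate 3 (-0.62, -0.96 and -0.25). Its log2 difference was -0.61 (SE 0.139, adjusted p = 0.0483), a 1.53-fold decrease and the lowest estimate among the ER genes. The other ER FKBPs did not pass the test. FKBP11 had a difference of 0.30 (adjusted p = 0.177), FKBP2 of 0.04 and FKBP7 of 0.03. Both calls, CRTAP and FKBP9, lie near the threshold: they were lost when the replicate number was left out of the fit (adjusted p = 0.673 and 0.618), after a further quantile normalization of the arrays (0.0571 and 0.0717), without replicate 1 (0.147 and 0.126) and without replicate 2 (0.136 and 0.174). Without replicate 3 CRTAP lost its call (0.059) and FKBP9 did not (0.0193), while FKBP9 also lost it with array medians set to 0 (0.0524) and with the median in place of the mean of probe sets (0.0504). Some markers of cell types also passed the test, where 2.24% of all genes rose and 4.58% fell. Of 6 fibroblast markers COL1A2 (-0.57) and S100A4 (-0.49) fell (33.3%). Of 8 chondrocyte markers COL11A1 (-0.60) and CNMD (-0.59) fell (25%) and COMP (0.92) rose. Of 3 osteoblast markers IBSP (-1.12) fell (33.3%), a gene that the study itself lists as regulated by TGF-β. Of 20 cell cycle genes MCM4 (-0.60) fell, and that share (5%) is near the background. None of 5 macrophage and 5 endothelial markers passed the test. Without pairing, the medians of the lists overlapped between the groups for fibroblast (-0.02 to 0.17 untreated, -0.18 to 0.13 with TGF-β1) and chondrocyte markers (-0.10 to 0.43 and -0.27 to 0.55). Within replicates 1, 2 and 3, the median paired difference was -0.43, -0.24 and -0.23 for fibroblast markers. It was -0.11, -0.06 and -0.10 for chondrocyte markers, and -0.02, 0.0024 and -0.01 over all genes. The part of these markers in the 2 calls was not tested.

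**Figure D2:**
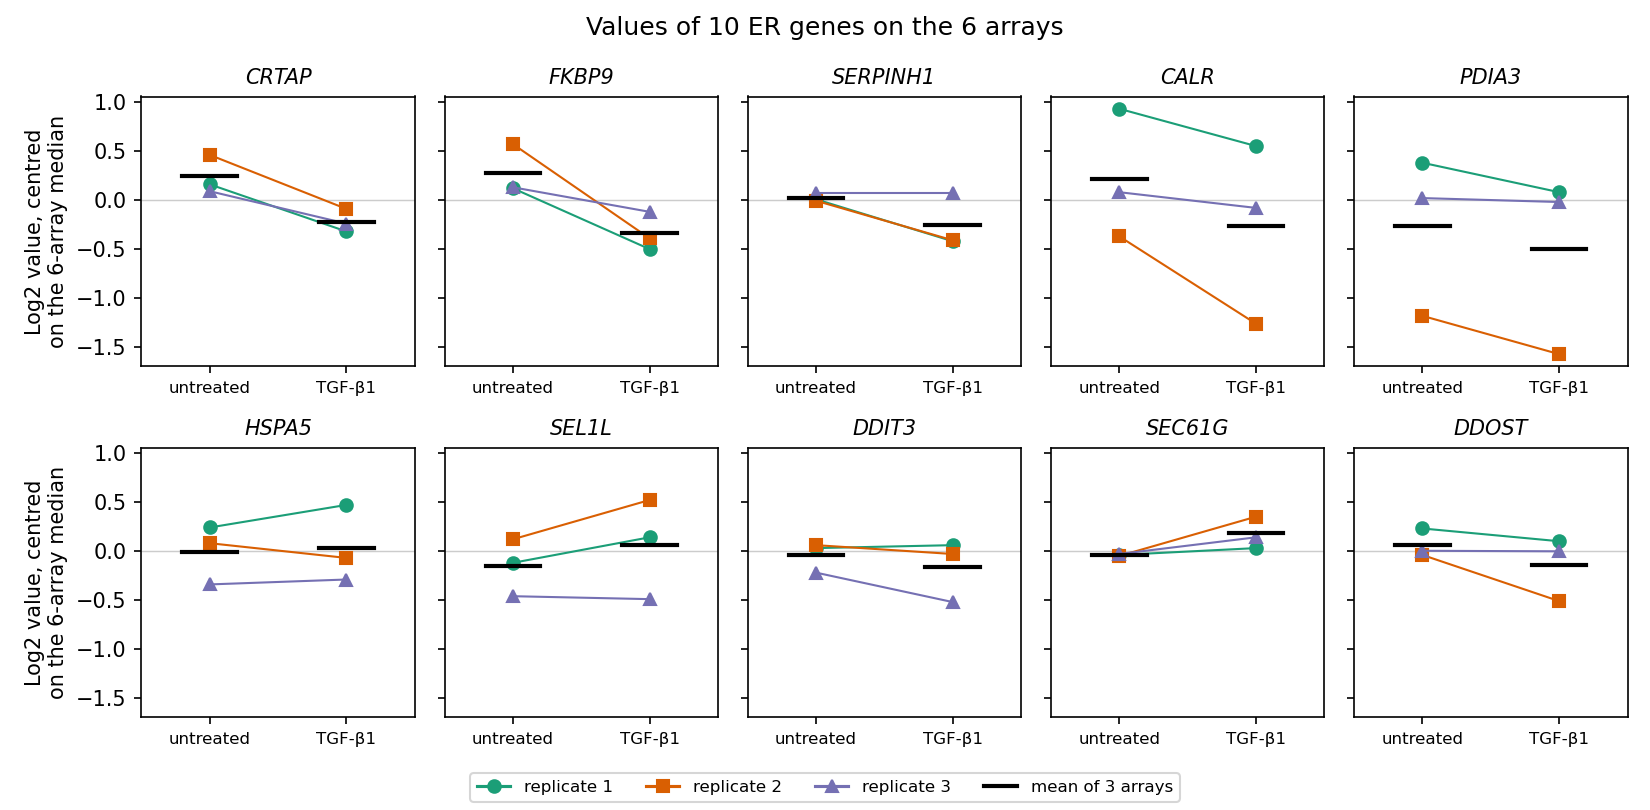
Values of 10 ER genes on the 6 arrays, as log2 signals centred on each gene's 6-array median (vertical axis), for untreated and TGF-β1 cultures; lines join the 2 arrays of each replicate number and black bars are group means over 3 arrays. In CRTAP and FKBP9 all 3 lines fall and the groups do not overlap, in SEC61G all 3 lines rise from nearly equal untreated values, and in CALR and PDIA3 the replicates lie farther apart than the treatments.

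General chaperones showed no common direction: 5 of the 10 estimates were above 0 and 5 below, the median was -0.0065, and none passed the test. HSPA5 encodes BiP, the Hsp70 chaperone of the ER lumen and the usual marker of ER stress. Its values were 0.24, 0.08 and -0.34 on the untreated arrays and 0.47, -0.07 and -0.29 on the TGF-β1 arrays. The order of the replicates was the same in both groups, the groups overlapped, and the paired differences took both signs (0.22, -0.15 and 0.05). The mean difference was 0.04 (95% interval -0.21 to 0.29, adjusted p = 0.863), its 3 probe sets gave 0.07, -0.06 and 0.11, and without replicate 1 the estimate was -0.05.

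CALR, the lectin chaperone calreticulin, had the smallest p of the general chaperones. It stood at 0.93, -0.37 and 0.08 on the untreated arrays and at 0.55, -1.26 and -0.08 on the TGF-β1 arrays. TGF-β1 values were lower in each pair, but the replicates lay so far apart that the groups overlapped, and the array with the bright spike-in controls, TGF-β1 replicate 2, was the lowest of the 6. The difference was -0.48 (SE 0.144, adjusted p = 0.104), and without replicate 2 it was -0.27 (adjusted p = 0.275). The part of that array in the estimate was not tested further. CANX, the membrane-bound partner of calreticulin, gave -0.16 (adjusted p = 0.374), and HSP90B1, the Hsp90 of the ER, gave -0.27 (adjusted p = 0.3).

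BiP works with J-domain partners and with exchange factors that free it from its client. Of the J-domain proteins, DNAJB9 had a difference of 0.35 (95% interval 0.09 to 0.60, adjusted p = 0.113) with higher TGF-β1 values in all 3 pairs, DNAJB11 of 0.03 and DNAJC3 of -0.02. SDF2L1, which binds DNAJB11, gave 0.01. The exchange factors had estimates of opposite sign, 0.08 for HYOU1 and -0.25 for SIL1 (adjusted p = 0.184). The highest of the 5 probe sets of HYOU1 gave 0.15.

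Among the enzymes that form and reshuffle disulfide bonds, 5 of 6 were measured and none passed the test. PDIA3 (ERp57), which works on the glycoproteins that calnexin and calreticulin hold, had the smallest p. Its values were 0.38, -1.18 and 0.02 on the untreated arrays and 0.08, -1.57 and -0.02 on the TGF-β1 arrays, so that replicate 2 was far below the others in both groups. The treatment difference was -0.24 (SE 0.104, adjusted p = 0.227). P4HB, which is both protein disulfide isomerase and the β subunit of the collagen prolyl 4-hydroxylase, gave -0.03, and ERO1A, the oxidase that recharges it, gave -0.03. PDIA4 gave 0.0015 and PDIA5 gave 0.13. The 3 probe sets of PDIA5 differed more than those of any other ER gene measured by several, with 0.46, 0.03 and -0.08.

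XBP1 and ATF6, both central stress factors, were not measured, so the stress response was read through 5 other genes, none of which passed the test. DDIT3, the transcription factor CHOP, is raised under lasting ER stress. Its values were 0.03, 0.06 and -0.22 on the untreated arrays and 0.06, -0.03 and -0.52 on the TGF-β1 arrays. Replicate 3 was lowest in both groups, and the difference was -0.12 (95% interval -0.36 to 0.12, adjusted p = 0.548). The smallest p among the stress factors was that of SEL1L, the scaffold of the HRD1 ubiquitin ligase that removes misfolded proteins. SEL1L was at -0.12, 0.12 and -0.46 on the untreated arrays and at 0.14, 0.52 and -0.49 on the TGF-β1 arrays. It was higher with TGF-β1 in replicates 1 and 2 but not in replicate 3, with a difference of 0.21 (SE 0.11, adjusted p = 0.321). HERPUD1, another part of that degradation machinery, gave 0.17, and the stress-induced secreted proteins MANF and CRELD2 gave 0.14 and 0.05.

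The 8 translocon genes had small differences of both signs, and none passed the test. The SEC61 channel subunits SEC61A1, SEC61B and SEC61G gave 0.11, 0.17 and 0.22, their helper SEC63 gave 0.04, and the 4 subunits of the translocon-associated protein complex gave 0.08 (SSR1), -0.08 (SSR2), -0.19 (SSR3) and -0.01 (SSR4). SEC61G, with the smallest p of the 8, was at -0.04, -0.05 and -0.03 on the untreated arrays and at 0.03, 0.35 and 0.14 on the TGF-β1 arrays. It was the only ER gene whose TGF-β1 arrays all lay above its untreated arrays, yet its difference of 0.22 did not pass the test (SE 0.1, adjusted p = 0.267). Over all genes the groups did not overlap in this direction for 462 (5.05%), and in the other direction for 534 (5.83%), where CRTAP and FKBP9 were the ER genes.

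All 3 measured genes of the oligosaccharyltransferase list had estimates below 0, and none passed the test. DDOST, a subunit that stabilises the enzyme, was at 0.23, -0.04 and 0.0027 on the untreated arrays and at 0.10, -0.51 and -0.0027 on the TGF-β1 arrays. The lowest value was again that of TGF-β1 replicate 2, and the groups overlapped. The difference was -0.20 for DDOST (SE 0.114, adjusted p = 0.368), -0.11 for RPN2 and -0.03 for OSTC. No probe set of an ER gene carried the array maker's suffix for sequences shared between genes (_s_at or _x_at). When the 61 single probe sets of the ER genes were tested among 24016, those of CRTAP and FKBP9 passed and no other did, while 585 of all probe sets rose and 832 fell.

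Collagen chaperones and general chaperones were then set side by side in each pair of arrays. The median difference of the 6 collagen chaperones was -0.20, 0.09 and -0.0017 in replicates 1, 2 and 3, and that of the 10 general chaperones was -0.12, -0.06 and 0.03. Collagen minus general was -0.08, 0.15 and -0.03 in these pairs, with a mean of 0.01 ± 0.12 (SD, n = 3 pairs) that was smaller than its spread. When each gene's differences were first averaged over the pairs, the medians were -0.11 and -0.0065, with a difference of -0.11, which became -0.02 when P4HB was counted with the collagen chaperones. The collagen chaperones ran from -0.46 (CRTAP) to 0.37 (FKBP14) and the general chaperones over nearly the same range, from -0.48 (CALR) to 0.35 (DNAJB9). No test was made between the lists, since 3 pairs are too few and the members were chosen.

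**Figure D3:**
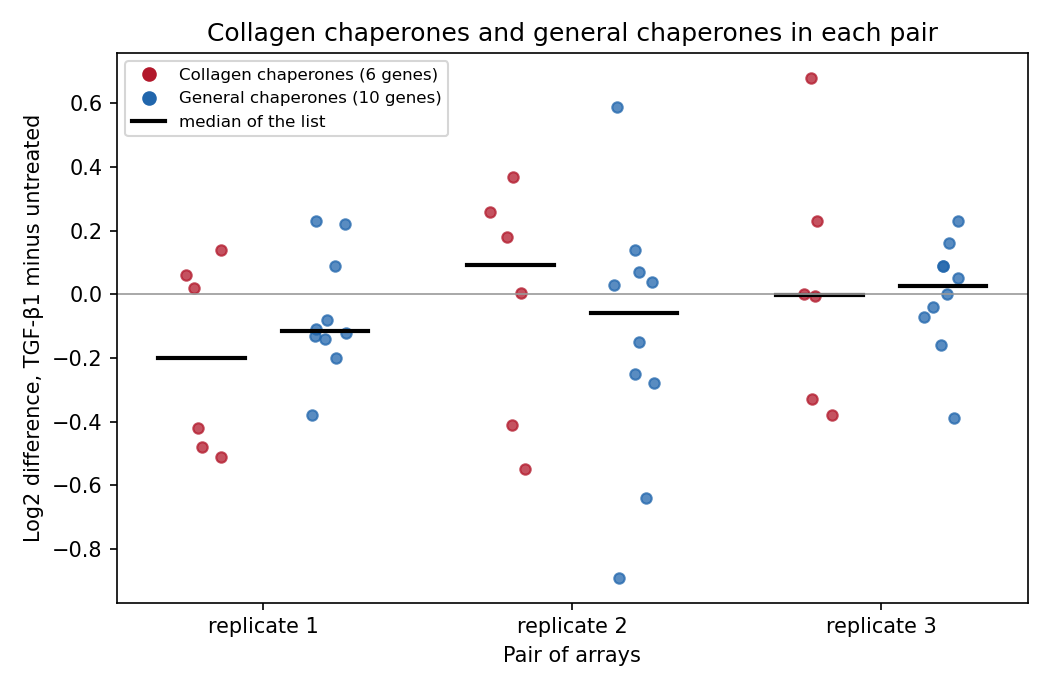
Log2 difference, TGF-β1 minus untreated, of each collagen chaperone (6 genes, red) and each general chaperone (10 genes, blue) in the pair of arrays of each replicate; black bars are list medians. The collagen median lies below the general one in replicates 1 and 3 and above it in replicate 2.

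More ER genes differed between replicates than between treatments. In limma's F-test of the replicate term, 21 of the 41 (51.2%) differed between replicate numbers at an adjusted p under 0.05, against 3194 of all 9155 genes (34.9%). They were 7 of the 10 general chaperones, 3 of the 5 disulfide enzymes, 3 of the 5 stress factors, 3 of the 6 collagen chaperones, 2 of the 4 other FKBPs, 3 of the 8 translocon genes and none of the 3 oligosaccharyltransferase genes. For each gene the mean of both arrays of a number was taken, and the range of these 3 means is given below as its spread between replicates. Where 1 pair of arrays is left out, fewer ER genes passed this test: 11 without replicate 3, 14 without replicate 1 and 16 without replicate 2. These fits have fewer arrays, and the same counts over all genes are not given here, so they cannot be read as particular to the ER genes.

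Most of the genes with the widest ranges, named here after their values were seen, shared a pattern in which replicate 1 was high and replicate 2 low in both groups. CRELD2 was at 0.88, -0.72 and -0.11 on the untreated arrays and at 0.86, -0.77 and 0.11 on the TGF-β1 arrays. Its replicate means spanned 1.61 log2 units, a 3.05-fold range (adjusted p = 0.000382), while its treatment difference was 0.05. PDIA3 and CALR, given above, spanned 1.61 and 1.56 (adjusted p = 0.000372 and 0.00214). The same order held in the co-chaperone DNAJC3, with 0.86, -0.51 and -0.00076 untreated and 0.72, -0.44 and 0.00076 with TGF-β1. MANF stood at 0.24, -0.91 and -0.09 untreated and at 0.33, -0.77 and 0.09 with TGF-β1. HSP90B1 spanned 1.21 and SDF2L1 0.90 in this order, and PDIA4, which spanned 1.24, was high in replicate 1 and lowest in replicate 3.

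Of the 20 measured general chaperones, disulfide enzymes and stress factors, 17 had their highest replicate mean in replicate 1, and SIL1, PDIA5 and SEL1L had it in replicate 2. These 3 lists were grouped after their values were seen. Over all 41 ER genes replicate 1 was highest in 24 (58.5%), against 28.4% of all genes, with 1 of 6 collagen chaperones and none of 4 other FKBPs among them. Replicate 1 exceeded replicate 2 in both groups in 15 of these 20. Over all 41 ER genes that count was 25 (61%), against 37.6% of all genes. The difference between replicates 1 and 2 in the untreated arrays correlated across the 41 genes with the same difference in the TGF-β1 arrays (r = 0.89, 0.67 over all genes). These are correlations across genes, which are not independent, and the arrays of a number may share their animal and preparation, so no p is given.

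Not all ER genes followed that order. The collagen chaperones P3H1 and FKBP14 were higher in replicate 2, with a difference (replicate 1 minus 2) of -0.65 and -0.52 in the untreated arrays and of -0.77 and -0.84 with TGF-β1. SIL1 did the same, with -0.58 and -0.45. Others stood out in replicate 3, the pair with high cell cycle genes. Replicate 3 had the highest mean in 8 of 41 ER genes and the lowest in 12, against 3610 and 3278 of all 9155. FKBP7, an ER isomerase of the FKBP family, was at 0.08, -0.60 and 1.46 untreated and at -0.08, -0.15 and 1.25 with TGF-β1. Its range of 1.73 was the widest of the ER genes (adjusted p = 0.00108). FKBP10 was likewise highest in replicate 3, with 1.08 untreated and 0.70 with TGF-β1, while HSPA5, SEL1L and DNAJB9 were lowest there.

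**Figure D4:**
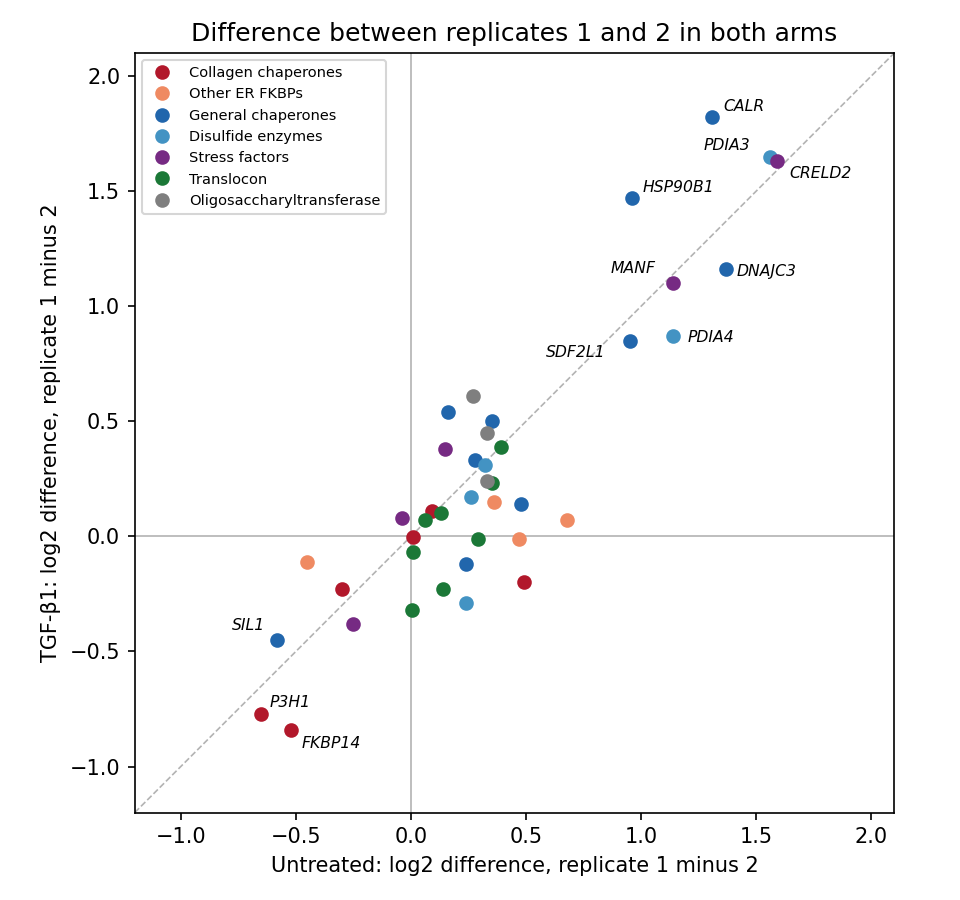
Log2 difference between replicates 1 and 2 of each of the 41 measured ER genes in the untreated arrays (horizontal axis) and in the TGF-β1 arrays (vertical axis), coloured by role; the dashed line marks equal differences. CRELD2, PDIA3, CALR, DNAJC3, MANF, HSP90B1, PDIA4 and SDF2L1 lie far to the upper right, P3H1, FKBP14 and SIL1 to the lower left (r = 0.89 across 41 genes).

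Markers of chondrocytes and of other cell types also differed between the replicates. Of the 6 macrophage markers 5 were measured, and CD68 and CD14 were high on the replicate 1 arrays (1.38 and 1.47 for CD68, 1.19 and 1.18 for CD14) against values between -0.55 and 0.05 on the others. CSF1R, PTPRC and AIF1 did not share this, with replicate means between -0.08 and 0.16, and the list's median ran from -0.05 to 0.20 over the 6 arrays. The fibrillar collagen genes COL1A2 and COL3A1, from a list of 6 fibroblast markers whose median ran from -0.18 to 0.17, were low in replicate 1 with means of -1.83 and -1.81. The other 4 fibroblast markers did not share this, with replicate 1 means of -0.09 (COL1A1), 0.10 (THY1), 0.14 (PDGFRB) and 0.09 (S100A4). The 8 measured chondrocyte markers were highest in replicate 2, with medians of 0.43 and 0.55 there and between -0.27 and -0.10 elsewhere. The part of these differences in the replicate pattern of the ER genes was not tested.

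A wider list of 123 other genes of the ER and early secretory pathway, in 9 groups, held 101 measured genes, of which 3 rose (2.97%, against 2.24% of all genes) and 2 fell (1.98%, against 4.58%), while the other 96 missed the threshold. Both shares of calls lie near or below the background. At an unadjusted p under 0.05 in limma's paired fit, 18 were higher (17.8%, against 8.41% of all genes). In the same fit 14 were lower (13.9%, against 14.1%). Of the stress sensors and factors, CREB3L2, a membrane-bound transcription factor that is known to drive secretory genes in cartilage, rose. It was at -0.24, 0.25 and -1.89 on the untreated arrays and at 0.24, 0.87 and -0.47 on the TGF-β1 arrays, higher with TGF-β1 in each pair and most so in replicate 3. Its difference was 0.84 (SE 0.178, adjusted p = 0.0381), with 1.02 without replicate 1 (adjusted p = 0.0291), 0.95 without replicate 2 (0.125) and 0.56 without replicate 3 (0.0491). CREB3, a related factor, fell by 0.55 on the log2 scale (SE 0.108, adjusted p = 0.0308), from 0.08, 0.24 and 0.47 untreated to -0.49, -0.08 and -0.27 with TGF-β1. The groups did not overlap. The ATF4 branch did not pass the test, with 0.01 for ATF4, 0.05 for ATF3, 0.09 for TRIB3, 0.39 for CHAC1 (adjusted p = 0.0574), -0.23 for PPP1R15A (adjusted p = 0.184) and -0.39 for NUPR1 (adjusted p = 0.16). Nor did the kinase that starts it, EIF2AK3 (PERK), at 0.11. These 7 genes are named beyond the rule, after their values were seen.

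Of 19 measured genes of ER-associated degradation, HERPUD2 fell by 0.45 on the log2 scale (SE 0.0945, adjusted p = 0.0365). HERPUD2, a relative of HERPUD1, was at 0.43, 0.29 and -0.30 untreated and at 0.11, -0.28 and -0.78 with TGF-β1. Its 2 probe sets differed in size, with -0.19 and -0.72. SYVN1, the HRD1 ligase itself, is named after its value was seen and gave 0.39 (adjusted p = 0.105).

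The enzymes that modify procollagen in the ER held the other 2 genes that rose. PLOD2, the lysyl hydroxylase of the collagen telopeptides, was at -0.67, -0.15 and -0.89 untreated and at 0.15, 0.68 and 0.30 with TGF-β1. Every TGF-β1 array lay above every untreated array, the difference was 0.95 (SE 0.108, adjusted p = 0.00534), and both of its probe sets moved together (1.07 and 0.82). PLOD2 passed the test without any 1 replicate too, with adjusted p between 0.0111 and 0.0345. COLGALT2, which adds galactose to collagen hydroxylysine, was at -0.36, 0.33 and -0.94 untreated and at 0.54, 0.74 and -0.33 with TGF-β1, a difference of 0.64 (SE 0.114, adjusted p = 0.0229). Its only probe set carries the suffix for sequences shared between genes. The other 7 measured genes of the group did not pass. They ran from -0.32 (COLGALT1) to 0.80 (P4HA3, SE 0.289, adjusted p = 0.162), the ends being named after their values were seen. CREB3, HERPUD2 and COLGALT2 lost their calls whenever any 1 replicate was left out (lowest adjusted p = 0.0504), CREB3L2 without replicate 2 only, HERPUD2 and COLGALT2 also after quantile normalization (0.0558 and 0.0612), and limma without the replicate number called none of the 5.

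Genes of vesicle export from the ER and retrieval to it had the highest median of the 9 groups. This group is described further after its values were seen. Of the 17 measured, 14 had estimates above 0 (82.4%, against 48.1% of all genes), with a median of 0.18 and a range of -0.14 to 0.44. At an unadjusted p under 0.05, 6 were higher (35.3%, against 8.41% of all genes), but none passed the adjusted test. The smallest p was that of SEC23A, the coat subunit of export vesicles whose loss is known to block collagen export. It was at -0.30, 0.07 and -0.18 untreated and at -0.07, 0.57 and 0.42 with TGF-β1, higher in each pair, with a difference of 0.44 (SE 0.105, adjusted p = 0.0569, or 0.0487 after quantile normalization).

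In the remaining groups no gene rose or fell. The gene of smallest p was SRPRA, a subunit of the signal recognition particle receptor, among the 15 targeting and signal peptidase genes (0.33, adjusted p = 0.0821), and ERP29, a PDI-related chaperone, among the 11 other redox enzymes (-0.37, adjusted p = 0.059). It was GANAB, the catalytic subunit of glucosidase II, among the 4 glycan quality control genes (-0.28, adjusted p = 0.204), and STT3A, a catalytic subunit, among the 8 other oligosaccharyltransferase genes (-0.30, adjusted p = 0.247). Of the 6 luminal calcium proteins it was SDF4 (-0.21, adjusted p = 0.253). The medians of these 5 groups lay between -0.09 and -0.01.

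**Figure D5:**
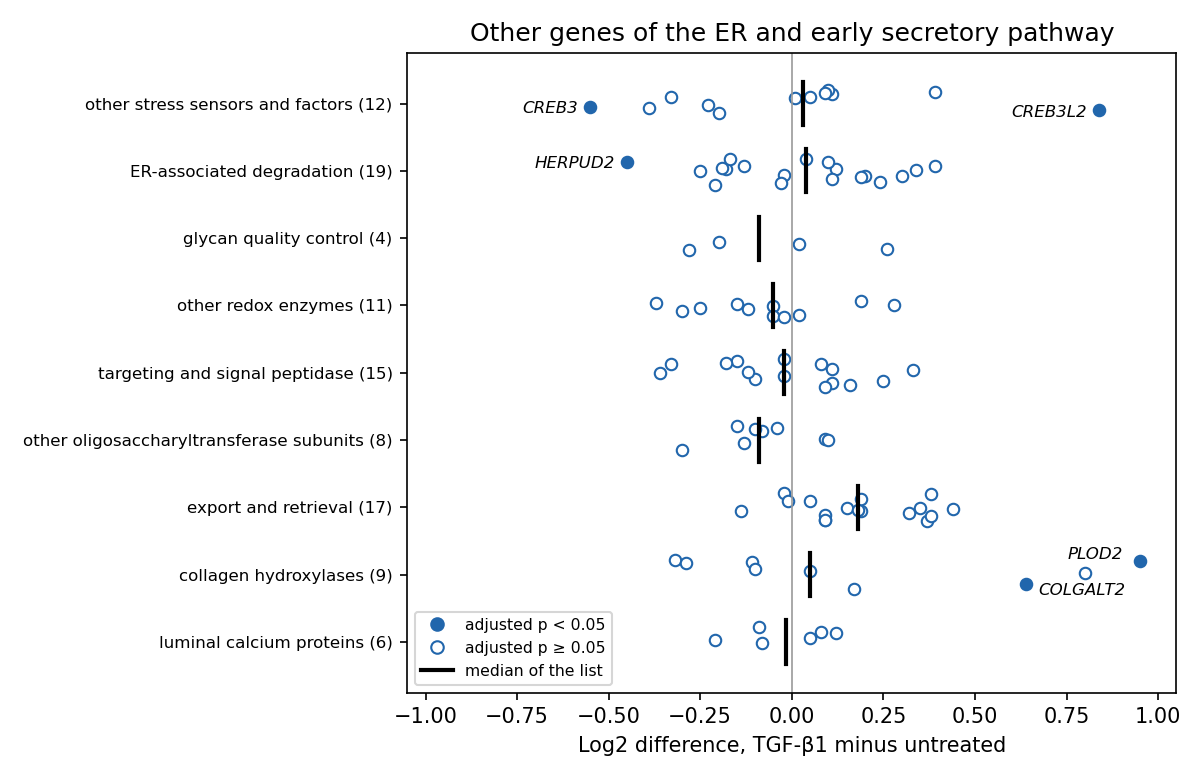
Log2 difference, TGF-β1 minus untreated (horizontal axis), of 101 other genes of the ER and early secretory pathway in 9 groups (number of genes in brackets); filled points are genes with an adjusted p under 0.05 in the paired fit and black bars are group medians. CREB3L2, PLOD2 and COLGALT2 lie to the right, CREB3 and HERPUD2 to the left, and the export group is centred on 0.18.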

How the data were processed

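RNA (50 ng, two-cycle oligo-dT amplification, which favours 3′ ends) of 6 cultures was hybridised to Affymetrix bovine arrays. The authors made the deposited log2 values in GeneSpring with Robust Multichip Average, and centred each probe set on its 6-array median, which is at most 5e-07 from 0. The version of GeneSpring is not given in the sources used here. Of 24128 probe sets, 112 controls were left out. Of 24016 tested, 13292 had 1 symbol in GEO's platform annotation, 86 several and 10638 none, and 13263 were matched to current symbols by Entrez ID. Probe sets were averaged per gene. No 2 arrays were copies (at most 56 identical values).

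Groups came from the labels. Differences were fitted with limma 3.58.1 (R 4.3.3; lmFit and eBayes, replicate number as a term), 2-sided, with Benjamini-Hochberg adjustment over 9155 genes. SEs are limma's moderated ones (2 residual and 4.98 prior degrees of freedom), not the spread of 3 pairs. Arrays of the same number deviated together from their group means (r = 0.69 to 0.85 across probe sets, -0.68 to 0.18 otherwise), and the study used 3 cows. Precision is limited by 3 arrays per group. The script was tested on simulated data. The members and lists were chosen with earlier results of these data known. All members are named. Array values are given for HSPA5, DDIT3, SERPINH1, each member past the threshold and the smallest p of each of 7 role lists. Of the 9 wider groups, genes past the threshold and the smallest p are named. Names beyond this are marked. Figures were drawn with matplotlib 3.10.9. C-terminal residues and promoter elements of the members, planned as a description, were not analysed here.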

Additional observations from a re-analysis of the deposited data

Results flagged for a closer look

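A signal outside the genes measured set 1 array apart. The median of the 18 spike-in probe sets, for control transcripts that are added in fixed amounts, was 1.53 log2 units on the TGF-β1 array of replicate 2, against -0.17 to 0.06 on the other 5 arrays. Of the 41 ER genes, 10 had their lowest value on that array (24.4%, against 23.2% of all genes), among them CALR (-1.26), HSP90B1 (-0.86), PDIA3 (-1.57) and DDOST (-0.51), and 7 their highest (17.1%, against 22.2%), among them FKBP14 (0.62), P3H1 (0.57) and SEL1L (0.52). The median of the ER genes was -0.07 there and -0.08 on the untreated array of replicate 2. The untreated array of replicate 2 had a spike-in median of -0.03. Its values were -0.37 for CALR, -0.22 for HSP90B1, -1.18 for PDIA3 and -0.04 for DDOST. For FKBP14, P3H1 and SEL1L they were 0.25, 0.31 and 0.12. Whether the spike-in signal bears on these values was not tested.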

How the results depend on the processing

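The test without the replicate block (groups alone) called 0 ER genes lower, 0 of the wider pathway genes higher and 0 lower, and 0 of all genes in either direction, with a lowest adjusted p of 0.108. In limma on the groups alone, 535 of 9155 genes, and 2 of the 41 ER genes, had an unadjusted p under 0.05. The methods' unequal-variance test, with an adjustment added here, called 0 ER genes lower. Unadjusted, that test put 406 of 9155 genes and 2 of the 41 ER genes under 0.05. The study's own list took a p under 0.05 with at least a 2-fold change and names no adjustment. Leaving out 1 replicate at a time gave 0 to 1 ER genes that fell, 1 to 2 wider pathway genes that rose and 0 that fell. Of all genes, 90 to 161 rose and 112 to 270 fell. In these smaller fits 11 to 16 ER genes differed between replicate numbers, a count not given here over all genes. A further quantile normalization gave 0 ER genes and 1 wider pathway gene (CREB3) that fell, with 127 of all genes higher and 196 lower. Setting array medians to 0 left 1 ER gene that fell (CRTAP), as did the median of probe sets. HSPA5 ranged from -0.05 (without replicate 1) to 0.14 (without replicate 2). The causes were not tested. ER genes that rose numbered 0 in every setting run. The median of the ER genes stayed within 0.03 of 0 but took either sign (0.03 without replicate 1, -0.03 without replicate 3). Collagen minus general chaperones, as a difference of median changes, stayed between -0.12 and -0.02. Its form taken in each pair and then averaged took either sign. That mean was 0.01 with the lists as given and 0.02 with P4HB among the collagen chaperones. It was -0.02 with disulfide enzymes and other ER FKBPs among the general chaperones. Leaving out probe sets shared between genes, or a robust prior, kept both CRTAP and FKBP9; without the shared probe sets COLGALT2 was not tested and CHAC1 passed (0.41, adjusted p = 0.0442). Of 188 further values for 21 named genes, 158 kept their direction and side of the threshold. In 28 a call was lost, in 1 a call was gained and in 1 the sign reversed. Most of the 21 genes had no call to lose, so the pooled count does not measure how stable the calls were. Not run were a filter on dim probe sets, as levels are lost, another background correction, as scanner files were not used here, and slide or scan date as a block, as neither is given in the sources used here.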
